A study of Mus musculus with 12 samples.

Results

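Tandem acceptors are neighbouring 3′ splice sites that compete for the end of the same intron, and they were measured here in mouse neocortex and neocortical cultures. A pair was taken where 2 introns on 1 strand began at the same 5′ splice site (the donor), ended 3 to 12 nt apart, and had 100 or more junction-spanning reads each, summed over the 8 libraries of the first table. There were 1642 such pairs among 4773 neighbouring acceptor pairs in all, at 1623 donors in 1370 genes. The pairs were selected on these summed read counts, so the summed shares are a description. The share of the upstream acceptor, the one nearer to the donor, is given as a percentage of the reads of both acceptors in a library.

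All libraries came from wild type mice of the NMRI strain and were poly-A selected and strand-specific. The first table held neocortex tissue at postnatal day 49 (P49), primary neocortical cells given DRB at 50 uM for 2 hours, untreated cells of the same kind (control culture) and neocortex at postnatal day 10 (P10). The second held cultures given DRB with bicuculline (20 uM, 1 hour) and cultures given DRB alone. Every culture was dissociated at E16.5 and grown for 14 days, so these are mixed neurons and glia rather than tissue. DRB inhibits the kinase that releases RNA polymerase II into elongation. Bicuculline is an antagonist of GABA-A receptors, which removes inhibition from the network. All 6 groups had 2 libraries, called 1 and 2 by column order only. The control, P49 and DRB-alone columns were matched to their groups by elimination, from what their names leave over. In the second table the columns taken as DRB alone have "ctl" in their names. The names of both P10 columns hold the same tissue code, although the libraries differed widely at a few pairs described at the end. Nothing says that the 2 came from separate animals or cultures, so p-values measure the spread between libraries, which may be technical.

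The acceptor AG is chosen late in splicing. The factor U2AF binds the pyrimidine tract and the AG, and in the second catalytic step the spliceosome usually joins the exon to the first suitable AG downstream of the branch point. Where AGs lie a few bases apart, both can be used, and the messenger RNAs then differ by the bases between them. A difference that is a multiple of 3 bases keeps the reading frame and adds or removes amino acids, while other differences shift the frame and may expose the transcript to nonsense-mediated decay.

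The bases that separate the messages are shown for the pairs on which the results turn. Each line runs 5′ to 3′ along the message made with the upstream acceptor. The capitals mark the bases between the acceptors, which the message of the downstream acceptor lacks, and the 15 lower-case bases on either side are exon. The first 5 differed between P49 and P10, the next 4 between DRB and control cultures, and the last 3 between control cultures and P10. They come from GENCODE transcripts of the GRCm38 build, not from the mice sequenced, and all lie in annotated coding sequence.

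Syt1: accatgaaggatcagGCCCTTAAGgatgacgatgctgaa
Mff: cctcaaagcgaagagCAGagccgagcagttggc
Reps1: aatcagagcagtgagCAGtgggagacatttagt
Myt1l: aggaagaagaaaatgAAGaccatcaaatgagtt
Rundc3a.1: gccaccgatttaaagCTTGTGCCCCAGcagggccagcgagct
Tex2: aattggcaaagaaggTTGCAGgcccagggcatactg
Ralgapb: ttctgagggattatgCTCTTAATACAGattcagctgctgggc
Synj1.2: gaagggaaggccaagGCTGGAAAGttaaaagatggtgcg
Edc4.1: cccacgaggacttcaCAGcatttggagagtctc
Prkag2: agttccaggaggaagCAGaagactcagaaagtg
Nptn.1: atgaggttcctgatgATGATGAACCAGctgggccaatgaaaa
Nckap1: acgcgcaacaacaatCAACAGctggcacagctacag

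A number after the gene name tells pairs of 1 gene apart. The capitals end in AG in all 12, as an acceptor requires, and their lengths are 3, 6, 9 or 12 bases. Of the 1499 pairs of any spacing whose separating bases could be read from a transcript, all 1000 that are 3 nt apart ended in AG, and so did 497 of the 499 others.

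Spacing of 3 nt was the most common by far. It accounted for 1105 pairs (67.3%), against 184 at 4 nt, 120 at 5 nt and 83 at 6 nt, and from 7 to 12 nt there were 14 to 42 pairs per spacing. In all, 1264 pairs (77.0%) were spaced by a multiple of 3, which keeps the frame in coding sequence. Among 1236 pairs in annotated coding sequence it was 78.6%, and among the 161 in untranslated or partly coding sequence 64.0%. Both introns were annotated in GENCODE for 807 pairs, the upstream one alone for 644, the downstream one alone for 163 and neither for 28. Most genes had a single pair (1154 of 1370), and Nsmf had the most with 6, while Rundc3a had 5. At 13 donors more than 2 acceptors lay in reach of each other, so that 32 pairs share reads with another.

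Use of the upstream acceptor varied with spacing. Its median share was 71.3% at 3 nt, 94.6% at 4 nt, 93.7% at 5 nt and 84.9% at 6 nt, and at the widest spacings it was lower, with 34.8% at 10 nt, 45.5% at 11 nt and 44.4% at 12 nt. The less used acceptor took 20% or more of the reads in 592 of the 1264 pairs spaced by a multiple of 3 (46.8%), against 65 of the 378 others (17.2%). Its median share was 18.3% where the spacing is a multiple of 3 and 5.54% elsewhere. The second table was not used to choose the pairs and gave like values: of the pairs with 50 or more reads there, 46.6% of 1248 pairs spaced by a multiple of 3 and 16.49% of 376 others had 20% or more at the less used acceptor. Frame-shifted messages may decay faster, and in these counts less splicing and more decay cannot be told apart.

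**Figure D1:**
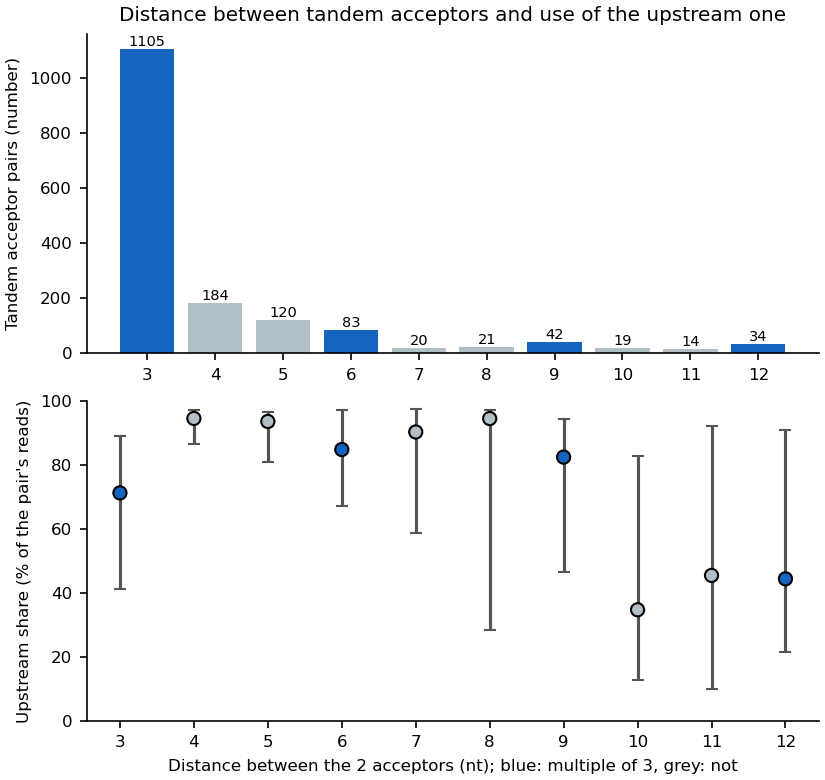
Number of tandem pairs (top) and share of reads at the upstream acceptor (bottom) by the distance between acceptors in nt, first table, reads summed over 8 libraries. Points are medians over pairs and bars run between the quartiles; 3 nt pairs number 1105 with a median of 71.3%, and at 10 to 12 nt the medians lie below 50%.

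Among pairs 3 nt apart, the bases just before the downstream acceptor went with its use. With CAG there (686 pairs) the median upstream share was 68.0%, with TAG (94) 75.7%, with AAG (195) 91.0% and with GAG (25) 95.5%. The less used acceptor had 20% or more of the reads in 58.3% of CAG, 43.6% of TAG, 23.6% of AAG and 16% of GAG pairs. The bases of both acceptors were known for 207 pairs, where another transcript crosses the intron's end. In that set, a CAG followed by CAG (102 pairs) had a median upstream share of 55.0%, a CAG followed by AAG (21) 92.0%, and an AAG followed by CAG (15) 38.5%. Mff, Reps1 and Prkag2 above are CAG pairs and Myt1l, with 96.5% at the upstream acceptor, an AAG pair.

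The most used pairs with both acceptors in play came from abundant messages. Pcbp2, an RNA-binding protein of the KH family, had 19799 upstream and 6981 downstream reads (73.9%), and its share lay between 69.9% and 77.1% in all 12 libraries. Ppp3cb, a catalytic subunit of calcineurin, had 55.0% upstream (Ppp3cb.2, chr14:20509501-20515522, minus strand), Eif4a2, a translation initiation helicase, 26.6%, and Gnb1, a G protein beta subunit whose pair is not wholly coding, 21.1%. Srsf5, a splicing factor, had 18.4%, with 17.0% to 20.4% over the 12 libraries. The actin-binding protein Dbn1 had 29.5%, the endocytic adaptor Epn1 47.0% and the calcium channel subunit Cacna1b 62.2%. Pairs whose spacing is no multiple of 3 seldom had many reads at the less used acceptor. In Psma3, a proteasome subunit, the share was 88.2% at 5 nt, in the kinase Mapk9 20.0% at 5 nt, in Api5 36.6% at 5 nt, and in the non-coding RNA Rian 95.9% at 5 nt.

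Shares of most pairs were close in all 4 groups of the first table. Over the 1430 pairs with 50 or more reads in each of its 8 libraries, the range of the 4 group means had a median of 3.21 percentage points. It was under 5 points for 980 pairs (68.5%), 10 points or more for 109 (7.62%) and 20 points or more for 10. Libraries of the same group differed by a median of 1.46 to 1.72 points over pairs with 50 or more reads in both. Among the named pairs, Srsf5 and Dbn1 had no called difference in any comparison, which does not show that their groups are alike.

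The groups themselves differ in more than age or drug. The first table had 49559425 to 73900724 junction reads per library and the second 62423801 to 69852903. The pairs took 1.77% to 2.01% of them. The summed level of 8 neuron markers was 11210.7 to 11228.1 CPM at P49, 4579 to 4670 CPM in DRB cultures, 2442 to 2559 CPM in control cultures and 6462 to 6475 CPM at P10 (CPM, junction counts scaled to library size). Snap25, Syt1, Rbfox3, Camk2a and Slc17a7 each had this order of groups, and Tubb3, Map2 and Gad1 did not. Gad1 was at 366 and 383 CPM in control cultures, against 243 and 214 CPM at P10. Map2 was at 445 and 436 CPM, against 394 and 370 CPM. Tubb3 was at 186 and 205 CPM at P49, against 519 and 572 CPM at P10. Myelin genes of oligodendrocytes (6 of 6 measured) summed to 2714 to 2768 CPM at P49, 112 to 131 CPM in DRB cultures, 61.7 to 76.0 CPM in control cultures and 883 to 1032 CPM at P10. Microglial markers (6 of 6) summed to 277.6 to 280.0 CPM at P49, 70.1 to 76.8 CPM in DRB cultures, 57.8 to 70.7 CPM in control cultures and 267 to 279 CPM at P10. Csf1r, Ctss, Cx3cr1 and Aif1 were lower in control cultures than at P10, and C1qa and C1qb were higher. Csf1r had 13.6 and 16.8 CPM in control cultures, against 182.7 and 169.4 CPM at P10. C1qa had 8.46 and 10.1 CPM, against 6.80 and 6.05 CPM. Astrocyte markers (5 of 6 measured) summed to 1290 to 1912 CPM over the first table. Slc1a3, Gfap and Aqp4 were higher in control cultures than at P10, and Slc1a2 and Aldoc were lower. Slc1a3 had 1006 and 1002 CPM in control cultures, against 323 and 324 CPM at P10. Aldoc had 347 and 377 CPM, against 542 and 506 CPM. Endothelial and mural markers (5 of 6) summed to 181 to 198 CPM at P49, 172 to 174 CPM in DRB cultures, 627 to 765 CPM in control cultures and 242 to 243 CPM at P10. The smooth muscle actin gene Acta2 made up most of the culture sum, with 613 and 491 CPM in control cultures, against 20.1 and 15.8 CPM at P10. Flt1, Pecam1 and Pdgfrb of this list went the other way. Flt1 had 1.26 and 1.21 CPM in control cultures, against 42.5 and 41.2 CPM at P10. Pecam1 had 0.809 and 0.900 CPM, against 31.2 and 34.7 CPM, and Pdgfrb 39.4 and 40.8 CPM, against 52.8 and 55.3 CPM. The libraries overlapped for Kdr, with 110.3 and 92.5 CPM in control cultures, against 95.6 and 95.5 CPM at P10. The share of a pair can differ between cell types, and the part of these markers in the differences below was not tested.

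Each pair was tested with edgeR's quasi-likelihood test on its upstream and downstream counts, so that gene expression and depth cancel. The effect is the log2 odds ratio, the log2 ratio of upstream to downstream reads in one group minus that in the other. P-values were Benjamini-Hochberg adjusted over all neighbouring acceptor pairs tested, at any distance, and called at 0.05. "Rose" and "fell" are used of the upstream share of called pairs. Comparisons that use the control cultures share those libraries, as do those that use P10, so their values are set side by side and not counted as repeats.

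Between P49 and P10, the question is how acceptor use changes as the cortex matures, and 19 of 1615 pairs were called, 6 with a higher upstream share at P49 and 13 with a lower. That is 1.18%, against 7.54% of all 4695 acceptor pairs tested (4.79% higher and 2.75% lower) and 10.9% of the 3080 that are under 3 or over 12 nt apart. Tandem pairs had a median of 2868 reads over both acceptors and the others 2493. The others have no upper limit on distance, so their acceptors can belong to different exons, as in exon skipping. The median log2 odds ratio was -0.07 over tandem pairs and -0.01 over all pairs. Of 1507 tandem pairs with 50 or more reads in each library, 30 differed by 10 points or more, and 4 of the called pairs did so.

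**Figure D2:**
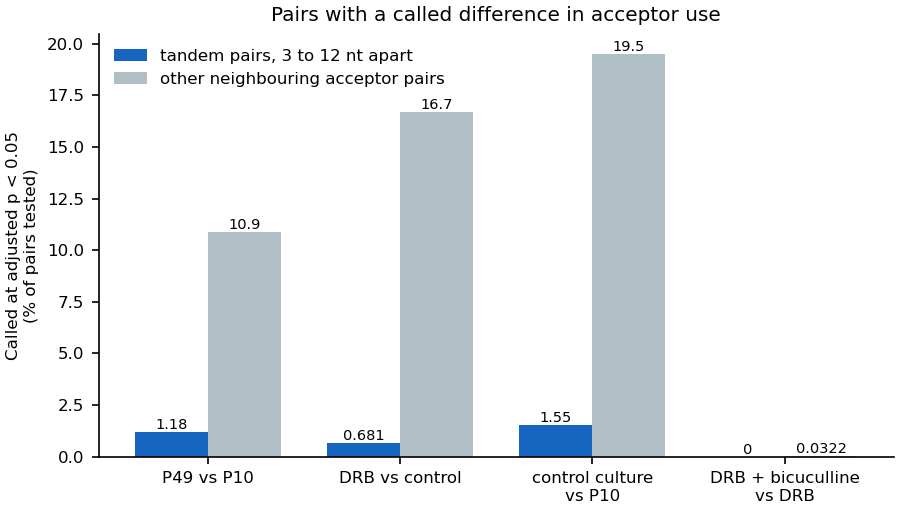
Percentage of pairs called at an adjusted p below 0.05 in each comparison, for tandem pairs (blue) and for other neighbouring acceptor pairs of a donor (grey). Tandem pairs lie at 1.18%, 0.681%, 1.55% and 0% and the others at 10.9%, 16.7%, 19.5% and 0.0322%.

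Syt1, the calcium sensor of synaptic vesicle fusion, had the largest called difference. Its 9 nt pair (chr10:108636674-108642213, minus strand) had upstream shares of 57.4% and 61.1% in P49 libraries, against 90.8% and 92.4% in P10 libraries. In cultures the downstream acceptor was hardly used, at upstream shares of 98.6% to 99.4% in all 8 libraries. The share fell by 32.3 points at P49, a log2 odds ratio of -2.91 ± 0.17 (SE; adjusted p = 1.4e-07), from 11140 or more reads per library. The reads of the downstream acceptor come from messages without the 9 capital letters shown above. The call passed in all 13 alternative fits.

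Other called pairs moved by less. Mff, which recruits the dynamin-related fission enzyme to mitochondria, had 24.50% and 22.95% in P49 libraries, against 36.96% and 37.81% in P10 libraries (chr1:82731283-82735415, plus strand). Its share fell, with a log2 odds ratio of -0.94 ± 0.13 (SE; adjusted p = 4.1e-04), and passed with each library left out, though limma on log-odds gave an adjusted p of 0.069. The cultures had 33.7% to 37.4%. Myt1l, a zinc finger transcription factor of neurons, rose to 98.3% and 98.0% in P49 libraries, against 95.9% and 95.4% in P10 libraries, a log2 odds ratio of 1.24 ± 0.21 (SE; adjusted p = 0.0019). Myt1l and Syt1 were the called pairs of this comparison, among the 16 named, that passed under every alternative.

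The other calls did not hold without some of the libraries. Reps1, an EH-domain protein of endocytosis (chr10:18104276-18107667, plus strand), had 73.3% and 76.4% in P49 libraries, against 89.1% and 88.5% in P10 libraries, and fell by 1.42 on the log2 scale (SE 0.33; adjusted p = 0.016). Without P49 library 1 its adjusted p was 0.12, and without P10 library 1 or 2 it was 0.058 or 0.055. The postsynaptic scaffold Dlg4 had 82.6% and 84.5% in P49 libraries, against 87.8% and 87.8% in P10 libraries (Dlg4.2, adjusted p = 0.044, and 0.194 without P49 library 1, 0.0795 without P10 library 1 and 0.0947 without P10 library 2).

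Of further named pairs, 5 fell at P49 and 5 rose, each with at least 1 library whose removal ended the call. Falling pairs were Add1, an actin-capping adducin (88.9% and 88.5% in P49, 93.9% and 93.1% in P10 libraries), Cwc27, a cyclophilin of the spliceosome (5.18% and 4.95%, against 13.7% and 13.9%), the sorting receptor Sorcs1 (92.2% and 86.0%, against 96.1% and 96.7%), the lipid phosphatase Synj1 at its second pair (1.54% and 1.31%, against 3.24% and 3.72%) and the ribosomal protein Rpl13 (86.7% and 75%, against 94.2% and 94.1%). Rpl13 has near-identical copies in the genome and its count is uncertain. Rising pairs were Rundc3a.1, of a RUN-domain protein of neurons (88.2% and 87.0% in P49, 82.5% and 81.3% in P10 libraries), Celf1.1, of an RNA-binding splicing regulator (97.3% and 95.7%, against 92.7% and 91.7%), Rims1, an active zone scaffold (96.8% and 97.8%, against 93.9% and 92.3%), Gde1 (96.3% and 97.3%, against 95.03% and 92.27%) and the mitochondrial kinase Pink1 (99.1% and 99.3%, against 98.5% and 98.0%). Cwc27, with 139 upstream reads, and Rims1, with 122 downstream reads, would miss the read minimum without P10. Rpl13, with 105 downstream reads, would miss it without P49. Each was chosen through the group where its less used acceptor has the higher share. Their values are a description and no test is given. With all libraries the log2 odds ratio was -0.88 for Add1, -1.65 for Sorcs1, -1.32 for Synj1.2 and 0.65 for Rundc3a.1. It was 1.23 for Celf1.1, 1.00 for Gde1 and 1.09 for Pink1.1. Without P49 library 1 it was -0.91 for Add1, 0.57 for Rundc3a.1, 0.91 for Celf1.1, -1.44 for Synj1.2 and 1.27 for Pink1.1. Without P49 library 2 it was -0.85 for Add1, -1.16 for Sorcs1, 0.80 for Gde1, -1.21 for Synj1.2 and 0.94 for Pink1.1. Syt1, Mff and Myt1l kept their calls in these fits. Without P10 library 1 the log2 odds ratio was -0.78 for Add1, -1.77 for Sorcs1, 1.27 for Pink1.1 and -1.41 for Synj1.2. Without P10 library 2 it was -1.52 for Sorcs1, 0.59 for Rundc3a.1, 1.14 for Celf1.1 and 0.63 for Gde1. For Synj1.2 and Pink1.1 it was -1.21 and 0.89. The called pairs Camk2b, Sfr1 and Dgkd were outside the rule for naming and are named after their values were seen, and all 3 had lower shares at P49.

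**Figure D3:**
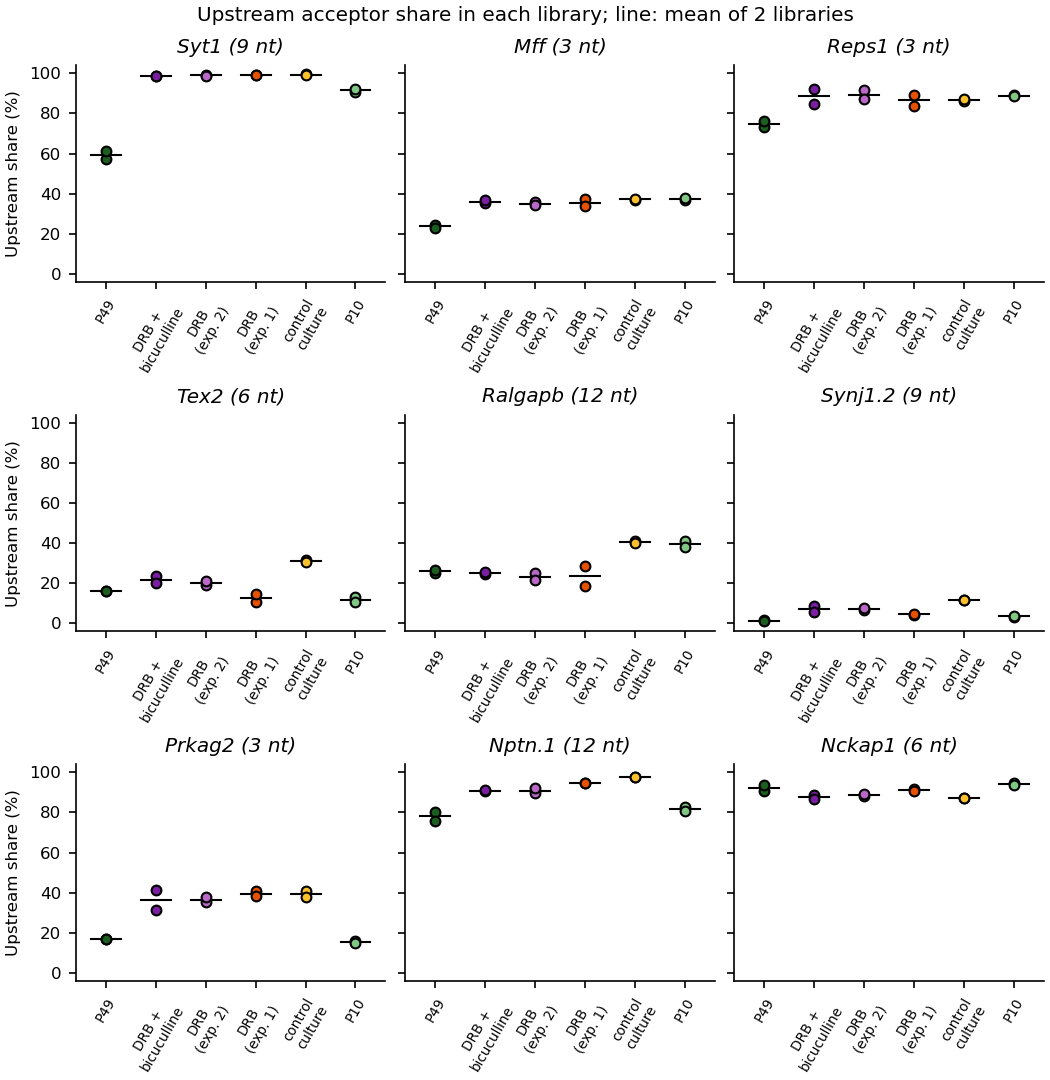
Share of reads at the upstream acceptor (%) in each of the 12 libraries for 9 leading pairs, with the spacing in nt; points are libraries and lines the mean of the 2 libraries of a group. Syt1 is at 57.4% and 61.1% in P49 libraries and at 90.8% or more elsewhere, and Prkag2 is at 31.5% or more in cultures and 16.8% or less in tissue.

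DRB cultures were set against control cultures to ask how acceptor use differs when transcription is blocked for 2 hours, and 11 of 1615 pairs were called, 3 higher and 8 lower with DRB. That is 0.681%, against 11.2% of all acceptor pairs (7.37% higher and 3.79% lower) and 16.7% of those under 3 or over 12 nt apart. The median log2 odds ratio was -0.01 over tandem pairs and 0.03 over all pairs. Of 1471 tandem pairs with 50 or more reads per library, 24 differed by 10 points or more, and 6 of the called pairs did so. With only these 2 groups in the fit, 32 pairs were called. The cultures also differed in the marker sums above.

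Several pairs had lower shares with DRB. Tex2, a lipid transfer protein of the endoplasmic reticulum (chr11:106513713-106519881, minus strand), had 10.8% and 14.5% in DRB libraries, against 31.7% and 30.6% in control libraries, and fell by 1.65 on the log2 scale (SE 0.27; adjusted p = 0.0011). Synj1.2, of the synaptic lipid phosphatase synaptojanin (chr16:90974076-90976598, minus strand), had 4.38% and 4.88%, against 11.5% and 11.5%, and fell by 1.41 (SE 0.28; adjusted p = 0.0042). Both passed under every alternative. Fsd1l (chr4:53686518-53693983, plus strand) had 6.80% and 5.77% in DRB libraries, against 22.97% and 19.33% in control libraries, and is counted among the called pairs. Over 50% of the 111 upstream reads of Fsd1l came from the control cultures, and the others alone would not reach the minimum. The pair was thus chosen through the group where its share is high, so its values are a description and no test is given for it here or against P10.

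Ralgapb, the beta subunit of a GTPase-activating complex for Ral (chr2:158448450-158450176, plus strand), had 28.5% and 18.4% in DRB libraries, against 41.2% and 40.3% in control libraries. It fell by 1.18 (SE 0.29; adjusted p = 0.014), and its adjusted p was 0.19 without DRB library 2 and 0.099 and 0.081 without control library 1 and 2. The calcium channel gene Cacna1a, at a 5 nt pair that shifts the frame, had 57.9% and 62.1% in DRB libraries, against 81.8% and 75.2% in control libraries (adjusted p = 0.04, with 0.179 and 0.122 without DRB library 1 and 2 and 0.216 and 0.0817 without control library 1 and 2). Nptn.1, of the cell adhesion protein neuroplastin, fell by 3.03 points (94.6% and 94.6%, against 97.8% and 97.5%; adjusted p = 0.0066, with 0.0582 without DRB library 2, 0.0782 without control library 1 and 0.0548 without control library 2). The mitochondrial ribosomal protein Mrps18c had 95.4% and 94.2% in DRB libraries, against 97.1% and 97.8% in control libraries (adjusted p = 0.024, and 0.0533 to 0.212 with any of the 4 libraries left out). Edc4.1, of a scaffold of messenger RNA decapping, rose to 13.9% and 14.2% in DRB libraries, against 6.56% and 8.09% in control libraries (adjusted p = 0.03, and 0.0629 to 0.138 with any of the 4 left out). The membrane glycoprotein Cd200 rose to 97.4% and 97.6%, against 95.9% and 95.8% (adjusted p = 0.034, and 0.119 to 0.188 with any of the 4 left out). Another called pair, Atg16l2.2, of an autophagy gene, was outside the rule for naming and is named after its values were seen, with 51.3% and 67.7% in DRB libraries, against 94.9% and 83.6% in control libraries.

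Shares under DRB were close in the experiments of the 2 tables. Over 1441 pairs with 50 or more reads in each of their libraries, the group means differed by a median of 1.23 points, and by less than 5 points for 1296 pairs (89.9%). The second experiment held no culture without DRB. There, with DRB alone, Tex2 had 19.0% and 21.2%, Ralgapb 24.9% and 21.9% and Synj1.2 6.62% and 7.75%, all below the control cultures of the first table. Edc4.1 had 9.48% and 8.51%, closer to the control cultures of the first table (6.56% and 8.09%) than to its DRB libraries (13.9% and 14.2%). No test was made across the tables.

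Bicuculline added to DRB was compared with DRB alone to ask whether network activity alters acceptor use without new transcription. Of 1620 pairs, 0 were called (0%), against 0.0212% of all 4725 acceptor pairs, with edgeR as with DESeq2 and limma. At an unadjusted p under 0.05 there were 65 pairs, 35 higher and 30 lower, and the smallest adjusted p was 0.787. Mean shares differed by a median of 1.14 points over 1450 pairs, and by 10 points or more in 16. Syt1 had 98.8% and 98.6% with bicuculline, against 99.0% and 98.8% with DRB alone (log2 odds ratio -0.21 ± 0.17, SE). Edc4.1 had 12.9% and 12.2% with bicuculline, against 9.48% and 8.51% with DRB alone (log2 odds ratio 0.53 ± 0.34, SE; adjusted p = 0.98).

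**Figure D4:**
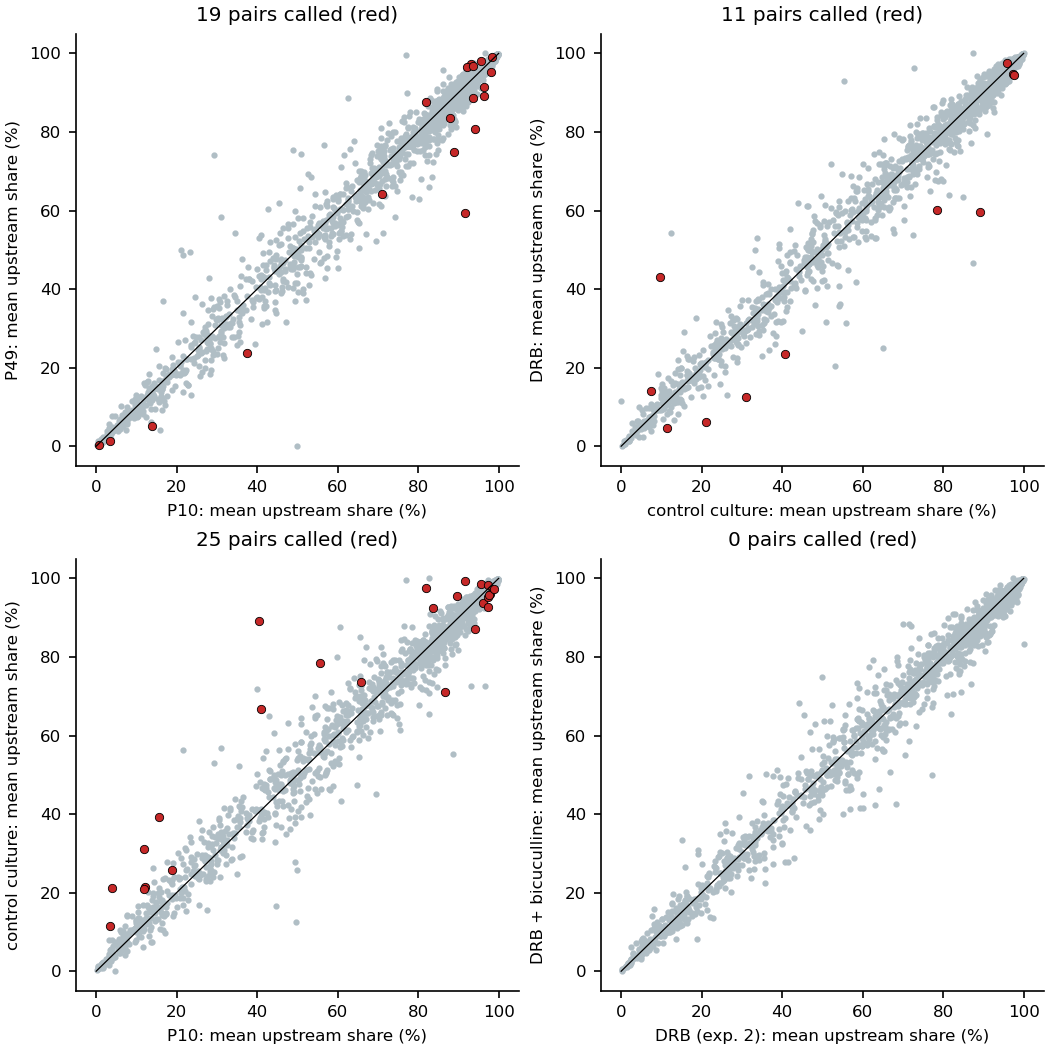
Mean upstream share (%) of each pair in the first-named group (vertical axis) against its comparison group (horizontal axis), for pairs with reads in every library of both; the line marks equal shares and red points are called pairs. Most pairs lie near the line, with 19 called for P49 against P10, 11 for DRB against control culture, 25 for control culture against P10 and 0 for bicuculline.

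Control cultures and P10 tissue differ in age, cell types and surroundings at once, and these cannot be told apart. In bulk samples, fewer cells of a type and less RNA per cell cannot be told apart either. Here 25 of 1615 pairs were called, 17 higher and 8 lower in control cultures. That is 1.55%, against 13.3% of all acceptor pairs (5.03% higher and 8.29% lower) and 19.5% of those under 3 or over 12 nt apart. Of 1471 pairs with 50 or more reads per library, 36 differed by 10 points or more, and 8 of the called pairs did so. Syt1 rose to 99.4% and 99.1% in control cultures, against 90.8% and 92.4% in P10 libraries, a log2 odds ratio of 3.56 ± 0.23 (SE; adjusted p = 1.8e-07).

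Prkag2, a gamma subunit of the energy sensor AMP-activated kinase (chr5:24889189-24908322, minus strand), had 40.8% and 37.7% in control cultures, against 16.01% and 15.13% in P10 libraries. It rose by 1.81 on the log2 scale (SE 0.23; adjusted p = 8.6e-05). All 8 culture libraries lay above all 4 tissue libraries: the other cultures had 31.5% to 41.5% and P49 libraries 16.8% and 16.8%. Nptn.1 (chr9:58643803-58650496, plus strand), whose 12 capital bases above are the difference, had 97.8% and 97.5% in control cultures, against 82.9% and 80.8% in P10 libraries, and rose by 3.18 (SE 0.25; adjusted p = 1.1e-06). Both passed under every alternative.

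Tex2 rose by 1.75 on the log2 scale in control cultures against P10 (SE 0.27; adjusted p = 3.6e-04), with 31.7% and 30.6%, against 13.1% and 10.6%. Synj1.2 rose by 1.83 (SE 0.30; adjusted p = 6.1e-04), with 11.5% and 11.5%, against 3.24% and 3.72%. Fsd1l, chosen through the control cultures, had 22.97% and 19.33% there, against 4.73% and 3.37% in P10 libraries, given as a description. The comparison of DRB with control cultures, given above for these pairs, uses the same control libraries and is no separate evidence. Nckap1, a subunit of the actin-regulating WAVE complex (chr2:80554791-80570118, minus strand), fell to 87.2% and 87.2% in control cultures, against 94.7% and 93.4% in P10 libraries (-1.22 ± 0.21, SE; adjusted p = 9.8e-04). Tex2, Synj1.2 and Nckap1 passed under every alternative.

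The other named pairs of this comparison lost their call without at least 1 library. Cacna1a.2 had 81.8% and 75.2% in control cultures, against 53.3% and 58.1% in P10 libraries (adjusted p = 0.0075, and 0.08 without control library 1). The zinc transporter Slc39a11 had 70.0% and 63.3%, against 41.4% and 40.5% (adjusted p = 0.013, with 0.102 without control library 1 and 0.0631 without P10 library 2). With DRB alone in the second experiment its libraries had 42.4% and 72.5%, a gap of 30.04 points within a group, against 25.67 points between control cultures and P10. Mapk9, a stress-activated kinase, had 26.5% and 25.2%, against 18.8% and 18.7%, at a pair that shifts the frame (adjusted p = 0.014, with 0.0955 and 0.0561 without control library 1 and 2 and 0.0523 without P10 library 2). Ppp2r5d, a regulatory subunit of protein phosphatase, had 18.8% and 24.2%, against 12.1% and 11.9%, and the nucleolar protein Nolc1 19.6% and 22.2%, against 13.04% and 10.70% (adjusted p = 0.035 and 0.025). Lower in control cultures were Bex4 (69.6% and 72.5%, against 88.6% and 84.6% in P10 libraries) and the glucosylceramidase Gba2 (93.1% and 92.3%, against 97.1% and 97.6%). So were Sybu, a kinesin adaptor of axonal transport (96.3% and 95.5%, against 97.7% and 98.1%), and Paics, an enzyme of purine synthesis (96.0% and 94.7%, against 96.8% and 97.8%). Krtcap2, a subunit of oligosaccharyltransferase (94.2% and 93.1%, against 95.9% and 96.3%), and the kinase Cdk16 (98.1% and 96.7%, against 98.6% and 99.0%) were lower too. The last was Rpsa, whose near-identical copies make its count uncertain (96.2% and 95.4%, against 97.5% and 97.6%). In the other cultures Gba2 had 95.4% to 98.4%, Rpsa 94.4% to 97.7% and Bex4 68.7% to 76.1%. The 125 downstream reads of Gba2 would not reach the minimum without the control cultures, where that acceptor has its higher share. Its values are a description and no test is given. With all libraries the log2 odds ratio was 1.01 for Ppp2r5d, 0.97 for Nolc1.1, -1.38 for Bex4, -0.84 for Paics and -0.74 for Krtcap2. It was -0.98 for Sybu, -1.21 for Cdk16 and -0.80 for Rpsa. Without control library 1 it was 1.23 for Ppp2r5d, 1.08 for Nolc1.1, -1.28 for Bex4, -1.02 for Paics and -0.86 for Krtcap2. Without control library 2 it was 0.76 for Ppp2r5d, 0.86 for Nolc1.1, -0.82 for Sybu and -0.62 for Paics. For Krtcap2, Cdk16 and Rpsa it was -0.59, -0.75 and -0.64 without control library 2. Bex4 kept its call without it. Without P10 library 1 the log2 odds ratio was 1.02 for Ppp2r5d and -0.82 for Krtcap2. Without P10 library 2 it was 1.00 for Ppp2r5d, 0.82 for Nolc1.1 and -0.85 for Sybu. For Paics, Krtcap2 and Cdk16 it was -0.55, -0.66 and -0.98. The other called pairs, Atg16l2.2, Itgb1bp1, Hipk2, Mlst8 and Fez1, were outside the rule for naming and are named after their values were seen. All 5 had higher shares in control cultures, and Atg16l2.2 differed by the most, with 94.9% and 83.6%, against 37.7% and 43.1% in P10 libraries, from 39 and 61 reads in the control libraries.

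Lists of genes by role were read for their pairs. RNA-binding genes had 77 pairs in 54 genes, of which 1 rose and 1 fell at P49 and 1 rose with DRB. Synaptic genes had 48 pairs in 33 genes: at P49 1 rose and 4 fell, with DRB 1 fell, and in control cultures against P10 3 rose. Of the 29 channel and receptor pairs tested, 1 fell with DRB and 1 rose in control cultures against P10. Of 79 pairs in chromatin and transcription genes, 1 rose at P49, and of 52 in cytoskeleton and trafficking genes 1 fell at P49 and 1 fell in control cultures against P10. The lists' median log2 odds ratios lay between -0.14 and 0.13. The synaptic members called at P49 were Rims1, which rose, and Syt1, Dlg4.2, Synj1.2 and Camk2b, which fell, the share of Camk2b being below 1% in every P49 and P10 library. These counts are descriptions, and over all tandem pairs 1.18% were called at P49 against P10, 0.681% with DRB against control cultures and 1.55% in control cultures against P10.

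Genes of 3′ splice site recognition and of the second splicing step were read beside the shares, as counts summed per gene over annotated junctions. Levels are relative to the RNA counted in each library. A gene called higher with DRB thus has a larger part of the remaining RNA, not necessarily more RNA. Of 36 such genes 32 were tested. At P49 10 were higher and 5 lower than at P10, when 57.4% of 15196 genes were called (28.4% higher and 29% lower). With DRB 11 were higher and 11 lower than in control cultures (63.4% of genes called, 30% higher and 33.3% lower), and in control cultures 21 were higher and 1 lower than at P10 (74.4%, with 37.2% higher and 37.2% lower). With bicuculline 0 were called by edgeR and 0 by DESeq2 (0.213% of genes, or 30 of 14082), and at an unadjusted p under 0.05 there were also 0. Slu7, which acts in the choice of the 3′ splice site in the second step, had 122.2 and 122.8 CPM in P49 libraries, against 89.7 and 92.4 CPM in P10 libraries (log2 change 0.43 ± 0.050, SE; adjusted p = 2.1e-05). Phf5a, a subunit of the branch point complex SF3B, had 22.96 and 23.70 CPM in P49 libraries, against 33.3 and 33.9 CPM (-0.53 ± 0.066, SE; adjusted p = 3.6e-05). Dhx38, a helicase of the second step, had 72.1 and 71.3 CPM in DRB libraries, against 97.0 and 98.5 CPM in control libraries (-0.45 ± 0.045, SE; adjusted p = 4.4e-06). Prpf8, at the core of the spliceosome, had 683 and 670 CPM in control cultures, against 461 and 461 CPM in P10 libraries (0.55 ± 0.041, SE; adjusted p = 1.7e-07). Whether these levels bear on the shares was not tested.

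At a few pairs the libraries of 1 tissue group stood far apart, and these were chosen after their values were seen. Over pairs with 50 or more reads in both libraries, the libraries differed by 20 points or more at 11 pairs in P49, 5 with DRB and bicuculline, 6 with DRB in the second experiment, 7 with DRB in the first, 3 in control cultures and 14 in P10. Differences of 40 points or more occurred at 1 pair in P49 and 3 in P10, and at 0 pairs in cultures. At a 6 nt pair of Ppp1r12b, a myosin phosphatase subunit (chr1:134879752-134886422, minus strand), P10 library 1 had 69 of 69 reads at the upstream acceptor and P10 library 2 had 0 of 226. The 0 of 226 allows a share of up to 1.33%, and the 0 downstream reads of library 1 one of up to 4.35%. P49 libraries had 0 of 291 and 0 of 236, and all 8 culture libraries had intermediate shares of 6.63% to 27.1%.

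Epas1, a hypoxia-inducible transcription factor, had 6.67% and 69.4% at a 4 nt pair in the P49 libraries, and 70.5% and 9.43% in the P10 libraries, from 53 to 129 reads (95% Wilson intervals 2.62% to 15.9%, 60.2% to 77.3%, 62.2% to 77.7% and 4.097% to 20.3%). Its introns are very short (chr17:86831789-86831836 and chr17:86831789-86831840), and neither is annotated. Whether these reads come from splicing was not tested. Mrpl55, of the mitochondrial ribosome, had 70.1% and 61.7% in P49, 100% in all 4 culture libraries of the first table, and 65.2% and 100% in P10 libraries. Cc2d1a had 100% and 77.2% in P49, 65.4% to 75.3% in the cultures, and 53.2% and 72.2% in P10 libraries. Intervals cover counting error only. None of these 4 pairs was called in any comparison. The order of the libraries at Epas1 is opposite in the 2 ages. The cause, a mix-up of samples included, was not tested, and every comparison with P10 rests on these libraries.

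**Figure D5:**
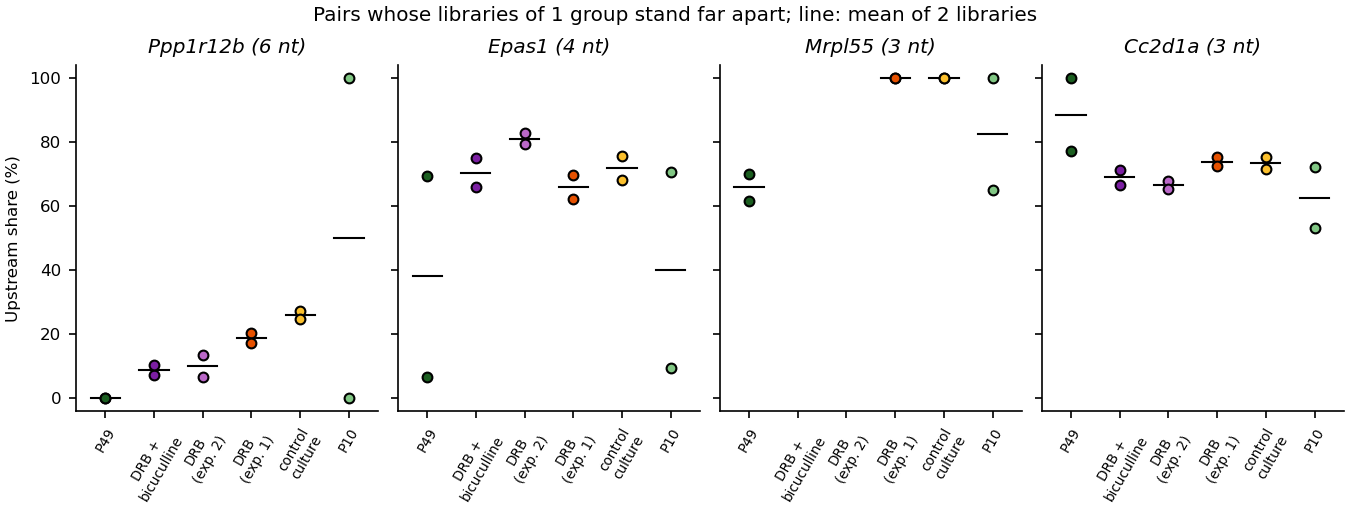
Share of reads at the upstream acceptor (%) in each library for 4 pairs chosen for the distance between libraries of 1 group; points are libraries and lines the mean of the 2. Ppp1r12b is at 100% and 0% in the P10 libraries, 0% in P49 libraries and 6.63% to 27.1% in cultures. Mrpl55 was not analysed in the second table.

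The read minimum fell among pairs with 1 dominant acceptor. Just inside, with 100 reads at the less used acceptor, were Birc6 (97.3% upstream), Cul9 (95.4%) and Dmd (97.3%), and just outside, with 99 reads, Abce1 (97.7%), BC023829 (96.0%) and Bin1 (99.2%). At 57 pairs an acceptor drew over 50% of its reads from 1 group and would have missed the minimum without it, and of these Fsd1l was called. The called pairs Cwc27, Rims1, Rpl13 and Gba2 drew less than 50% from any 1 group. They too would have missed the minimum without the group named above. Called pairs outside the rule for naming were not examined for this.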

How the data were processed

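The deposited values are counts: the authors aligned reads with STAR 2.4.0f1 (per the submitters' processing notes, which name GRCm38 and mm10) and deposited whole-number counts of reads across each intron and library in 2 tables. The counting settings are not given in the sources used here. Libraries held 49559425 to 73900724 junction reads. Columns were matched to groups by name, those of control cultures, P49 and DRB alone by elimination, 72 columns of per-library values were not used, and the headers hold 3 names more than the rows have cells, so names were read 3 places to the right.

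Introns sharing a donor were paired with their next acceptor, and annotated with GENCODE release 21 (GRCm38). Pairs were tested with edgeR 4.0.16 (R 4.3.3; quasi-likelihood, upstream and downstream counts with library terms and an acceptor-by-group term), requiring 10 reads over both acceptors in each library, all groups of a table sharing 1 fit, with Benjamini-Hochberg adjustment over all acceptor pairs. Gene counts were tested with edgeR after TMM scaling. Calls were made at 0.05. The code was tested on simulated data. Alternatives used DESeq2 1.42.0, limma 3.58.1 on log-odds (0.5 added), other minimums, sets of pairs and samples, each library left out, and a block.

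The members and lists were chosen with earlier results of these data known. Pairs named were, per comparison, the 8 called pairs per direction with the largest difference in share and 50 or more reads in each library, the 6 most read pairs with 20% or more at the less used acceptor, 3 per role list, 4 whose spacing is no multiple of 3, and 3 on each side of the read minimum. Sets of replicates differed by more than sampling noise. Pairs on chromosome 18 have no sequence printed. Some named pairs are not reported here.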

Additional observations from a re-analysis of the deposited data

How the results depend on the processing

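Of 46 calls at named pairs, 12 held under every alternative and 34 were lost under at least 1, and 0 reversed. The 46 include those of Fsd1l, Cwc27, Rims1, Rpl13 and Gba2, whose values are descriptions. The Fsd1l call against P10 is among the 12. The 19 pairs called for P49 against P10 became 3 with DESeq2, 5 with limma on log-odds and 3 with only the groups compared in the fit, and 10 to 14 with 1 library left out (10 without P49 library 1 or P10 library 2). For DRB against control cultures the 11 pairs became 6 with DESeq2, 6 with tandem pairs fitted alone, 32 with only the groups compared, and 5 to 7 with 1 library left out (5 without DRB library 2). For control cultures against P10 the 25 pairs became 12 with DESeq2, 16 with tandem pairs alone, and 13 to 27 with 1 library left out (13 without control library 2). Bicuculline against DRB gave 0 under each alternative. Splice-site factors called were 14 to 17 for P49 against P10, 16 to 18 for DRB against control cultures, 18 to 19 for control cultures against P10 and 0 for bicuculline with 1 library left out. The cause was not tested. With 1 library left out, the lone library is assumed to vary like the other groups. Low read numbers limit pairs such as Slc39a11 and Rpl13.

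In the second table the column letters served as a replicate block, and the block gave 0 calls for pairs and 0 for factors. With 2 pairs of letters, nothing states that a letter marks a shared culture. No paired analysis was possible because, in the first table, the numbers within the column names of the groups compared have fewer than 2 in common.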
